A study of Megathyrsus maximus with 33 samples.

Results

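The comparison described here is that of leaves of Guinea grass (Panicum maximum) from plots warmed at ambient [CO2] (eT) with leaves from ambient control plots (C), sampled at time point B, which the labels place at 50 days of treatment. Its members are the 8 libraries whose labels give these 2 treatments and this time point, of 32 libraries in all, and all 39208 transcripts of the normalized table. The eT plots were warmed by infrared ceramic heaters, with 2 °C above ambient as the stated treatment, and received no added CO2. The conclusion of the study gives a smaller warming of the canopy. The C plots were neither warmed nor enriched. The other groups of the field experiment were plots held at 600 ppm CO2 (eC), plots that received both treatments (eCeT), and all 4 treatments at time point A, after 30 days.

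Each treatment had 4 plots of 2 m diameter in the open field, and each library came from the pooled youngest fully expanded leaves of 1 plot, so the plot is the replicate. The same plots were sampled at both time points. The date of time point B is given as June in the methods of the study and as July in the description of the data set, and the true time of exposure to warming is uncertain to that extent. The transcripts come from a de novo assembly and carry no genome position. Names are matches of their translated sequences to Arabidopsis proteins with an E value of 1e-04 or less. These matches were listed by the study for transcripts that it had picked in eCeT against C, some at time point A and some at time point B. The second kind was picked with the same C plots that are used here, so its direction in eT is not independent evidence.

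Guinea grass is a perennial pasture grass of tropical origin with C4 photosynthesis, in which CO2 is concentrated around Rubisco in the bundle sheath cells. In plants, heat unfolds proteins and releases heat shock factors, which switch on genes for chaperones. Small heat shock proteins hold unfolded proteins in a soluble state, and the larger chaperones HSP101, HSP90 and HSP70, with DnaJ partners, refold them. Ambient temperature also acts on flowering, in part through FLOWERING LOCUS T (FT), the mobile signal that is made in leaves and moves to the shoot tip. In Arabidopsis the FT gene is switched on by CONSTANS.

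The values tested are log2 of the reads of a transcript plus 0.5 per 1e+06 of a scaled library size, so a difference of 1 is a 2-fold change. The reads recovered from them came to 10860852 to 15638548 per library in eT (median 12880402) and 10895901 to 13363198 in C (median 11535301). Transcripts of the light reactions, which mark green leaf, were read in each plot, and those of the antenna protein LHCA6 (c82081_g1) had log2 values of 4.30 to 4.77 in eT and 5.01 to 5.79 in C. Reads fell on 37817 to 38612 of the 39208 transcripts in eT and on 37798 to 38334 in C. A single unnamed transcript, c78052_g1, took 9.49 to 27.5% of the reads in eT and 16.3 to 35.2% in C, and its log2 value was 0.14 lower in eT than in C (adjusted p = 0.987). The 10 largest transcripts held 21.3 to 40.6% of the reads in eT and 27.5 to 53.9% in C, the highest share being that of C replicate 3. No 2 of these libraries were copies of each other, the highest Pearson correlation of a pair being 0.95. The split into eT and C took up 16.3% of all squared distances between the 8 libraries, beside a median of 13.9% over all 70 arrangements of the plots. This separation did not pass the exact permutation test over the 70 arrangements (two-sided, p = 0.229, where the smallest possible is 0.0286). The plots of eT lay closer together than those of C. Their distances to the centroid of their own group were 106.9, 112.4, 114.9 and 100.9 in eT against 140.2, 121.0, 142.0 and 117.5 in C, and the groups did not overlap. The median SD of a transcript over the plots was 0.388 in eT and 0.468 in C on the log2 scale, and 23943 of 39208 transcripts varied more in C.

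After 50 days of warming few transcripts passed the test, and all of those that did were higher in eT. With limma on the log2 values, a spread estimated over the 8 groups and Benjamini-Hochberg adjustment over all transcripts, 7 transcripts had an adjusted p under 0.1, which is 0.0179% of the 39208 tested, and 0 were lower in eT. Without adjustment, 1577 transcripts were higher in eT at p under 0.05 (4.02%) and 1268 were lower (3.23%), 7.26% in all. In 864 transcripts every eT plot stood above every C plot (2.2%), and in 870 every eT plot stood below (2.22%). Over all transcripts 19276 values were higher in eT and 19932 lower, with a median log2 difference of -0.0077. The count depended on the settings, and it was 2 with voom on the recovered reads and 0 when the spread was estimated from only the 16 libraries of time point B (3207 at an unadjusted p under 0.05). The direction depended on them too. With only the 8 libraries of eT and C, 5 were higher and 5 lower, and with array weights 20 were higher and 4 lower. The study, which used limma after voom, reported 2 transcripts altered in eT at this time point.

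The calls came mostly from abundant transcripts. When the transcripts were divided by mean level into 4 classes of equal size, 6 of the 7 called lay in the highest class and 1 in the lowest. The highest class also held 634 of the transcripts that were higher at an unadjusted p under 0.05 and 475 of the lower ones, while the lowest class held 298 and 279. The median size of the log2 difference was 0.16 in the highest class and 0.51 in the lowest. Differences over 2-fold with an unadjusted p under 0.05 numbered 549 higher and 488 lower.

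**Figure D1:**
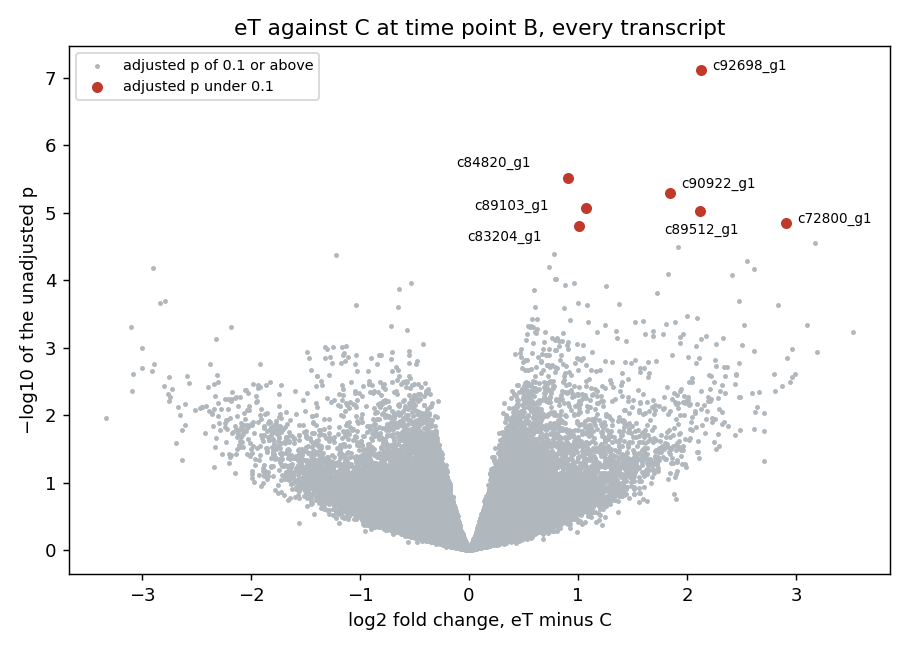
Log2 difference of eT minus C at time point B (x axis) against the negative log10 of the unadjusted p (y axis) for the 39208 transcripts, each point being 1 transcript and the 7 called ones marked. The called transcripts lie on the side higher in eT, with c92698_g1 at the top.

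Of the 7 transcripts that rose in eT, 5 had no name in the sources used here and 2 had a match to an Arabidopsis protein. The change most firmly separated from the spread between plots was that of the unnamed transcript c92698_g1. Its log2 values were 6.73, 5.81, 6.53 and 6.49 in the eT plots against 4.94, 4.20, 4.08 and 3.84 in the C plots, from 1259, 716, 967 and 1490 reads in eT and 413, 209, 157 and 164 reads in C. The lowest eT plot thus lay above the highest C plot. It rose 4.37-fold (log2 difference 2.13 ± 0.31 SE, adjusted p = 0.00302, n = 4 plots each). As in any pooled leaf sample, more cells that express a transcript and more of it per cell cannot be told apart. It was also the 1 transcript that passed whichever of the 8 plots was left out, with log2 differences of 1.99 to 2.35. With only the 16 libraries of time point B its adjusted p was 0.157. In the FPKM table with a pseudocount of 1 its log2 difference was 1.62 (adjusted p = 0.81). There C replicates 1 and 2, the 2 highest controls of this transcript, were the only controls used.

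A pair of further unnamed transcripts rose by a similar amount. For c89512_g1 the log2 values were 7.65, 6.58, 6.93 and 7.19 in eT against 5.90, 4.46, 4.93 and 4.58 in C (difference 2.12 ± 0.40 SE, adjusted p = 0.0731). For c90922_g1 they were 6.07, 5.01, 5.60 and 6.27 in eT against 4.45, 3.99, 3.62 and 3.50 in C (difference 1.85 ± 0.34 SE, adjusted p = 0.0673). In both transcripts, as in c92698_g1, eT replicate 2 was the lowest warmed plot and C replicate 1 the highest control plot. The highest warmed plot was replicate 1 in c92698_g1 and c89512_g1 but replicate 4 in c90922_g1. The lowest control plot was replicate 4 in c92698_g1 and c90922_g1 but replicate 2 in c89512_g1. Whether these 3 transcripts belong to 1 gene was not tested. A smaller rise was that of c89103_g1, with log2 values of 5.22, 5.35, 5.39 and 5.94 in eT against 4.72, 4.47, 4.16 and 4.25 in C (difference 1.08 ± 0.20 SE, adjusted p = 0.0731).

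The first of the named transcripts, c84820_g1, matched an Arabidopsis protein of the aldolase superfamily, the delta-aminolevulinic acid dehydratase HEMB1, an enzyme of the plastid pathway that makes tetrapyrroles such as chlorophyll and haem. Its log2 values were 7.56, 7.49, 7.92 and 7.95 in eT against 6.95, 7.04, 6.56 and 6.73 in C (difference 0.91 ± 0.16 SE, adjusted p = 0.0601). Per length of transcript it was the most abundant of the 7, at 291 ± 53.2 FPKM in eT (SD, n = 4) and 177 and 166 FPKM in the 2 C plots whose FPKM columns could be used. The transcript c84530_g1 matched the same protein by an identical alignment, so the name of either is uncertain. The log2 values of c84530_g1 were 7.60, 7.56, 7.81 and 7.74 in eT against 7.10, 7.23, 7.37 and 7.46 in C (difference 0.39 ± 0.13 SE, adjusted p = 0.474). Its groups did not overlap either, but its difference did not pass.

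The second named transcript, c83204_g1, matched a protein with the domain DUF1677, whose function is not known. It had log2 values of 5.01, 4.78, 4.57 and 5.02 in eT against 3.73, 4.22, 3.60 and 3.78 in C (difference 1.01 ± 0.20 SE, adjusted p = 0.0894). Both named transcripts had been picked by the study in eCeT against these C plots. The seventh, c72800_g1, is a rare transcript without a name. It was read 4, 3, 4 and 4 times in the eT plots and 0 times in each of the 4 C plots, which makes it at least 4.43-fold higher in eT against a floor of 3 reads over the group (adjusted p = 0.0894).

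**Figure D2:**
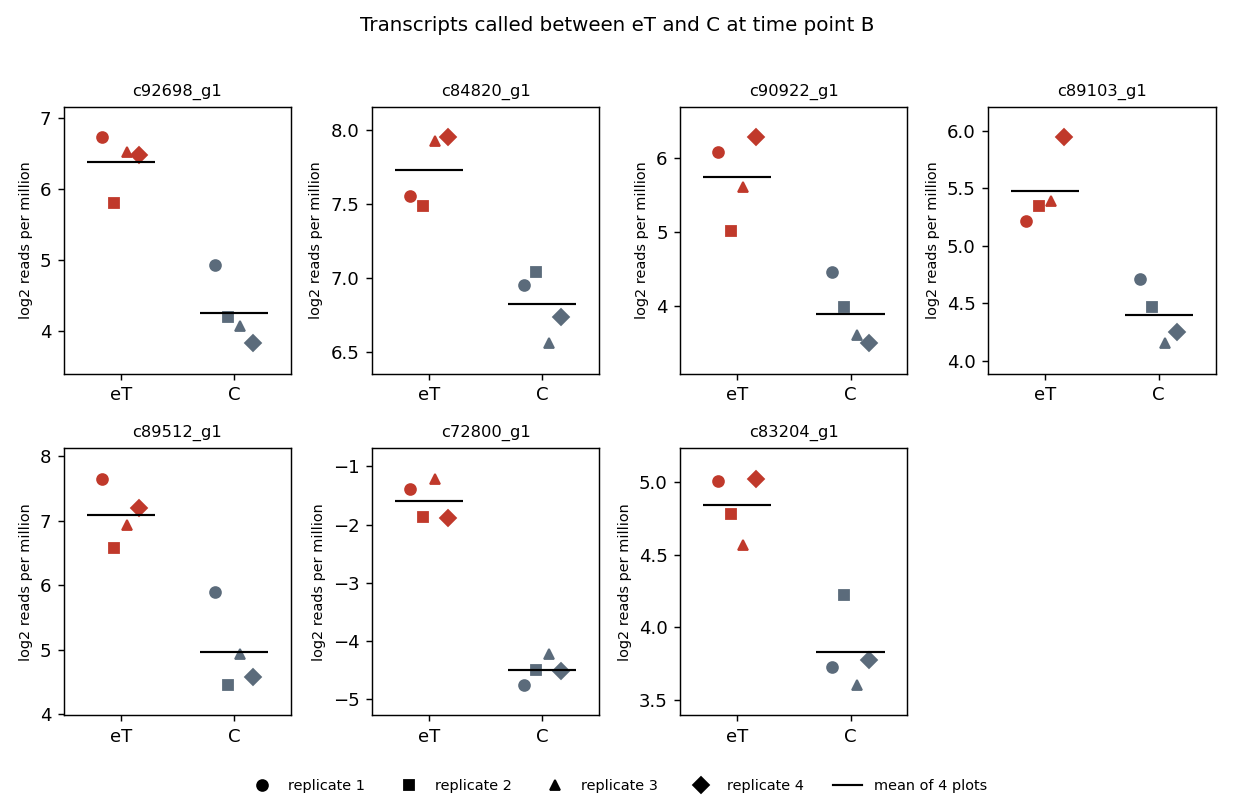
Log2 normalized values (y axis) of the 7 called transcripts in each plot of eT (left) and of C (right) at time point B, 1 point a plot with 1 symbol per replicate number, and the mean of 4 plots as a line. In each of the 7 the lowest eT plot lies above the highest C plot.

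Other than c92698_g1, each of these calls depended on which plots were used. Leaving out 1 plot at a time, c84820_g1 still passed in 4 of 8 fits, c90922_g1 and c89103_g1 in 3 each, c89512_g1 in 2, c83204_g1 in 1 and c72800_g1 in 0. Without C replicate 1 there were 6 calls, of which 5 were among the 7, and without C replicate 2 there were 17 (13 higher and 4 lower), again with 5 among the 7. Without eT replicate 1 or eT replicate 2 there were 4, and without any 1 of eT replicate 3, eT replicate 4, C replicate 3 or C replicate 4 there was 1, which was c92698_g1.

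The question of whether the same transcripts differ where plots are also enriched in CO2 was addressed with eCeT against eC at time point B, which shares no library with eT and C. No transcript passed there (0 called, 2201 or 5.61% at an unadjusted p under 0.05, and 0 called with voom). The 7 transcripts were all higher in eCeT than in eC, but by 0.03 to 0.56 on the log2 scale, and c84820_g1 had the 1 unadjusted p under 0.05 among them (difference 0.43). For c92698_g1 the mean log2 values at time point B were 6.39 ± 0.40 in eT, 5.69 ± 0.24 in eCeT, 5.32 ± 0.92 in eC and 4.26 ± 0.47 in C (SD, n = 4). The C plots were thus the lowest of the 4 treatments, and eC stood between eCeT and C. Without warming, eC minus C also gave a positive difference for all 7, each with an unadjusted p under 0.05 (2.8% of all transcripts were higher at that level). Of all transcripts 0 were called there and 2553 had an unadjusted p under 0.05, in a comparison that shares the C plots with that of eT. For c72800_g1 this fitted difference was 2.46 in eC minus C beside 2.91 in eT minus C, and for c83204_g1 it was 0.85 beside 1.01. For c92698_g1 it was 1.06 beside 2.13, and over the 7 it was 0.57 to 2.46. All 7 thus had higher values than C in unwarmed plots as well. They had been called against these same C plots, so this direction is not independent evidence. The order of means of c92698_g1 held in c89512_g1 (7.09 in eT, 6.12 in eCeT, 5.91 in eC and 4.97 in C) and in c90922_g1 (5.74, 4.82, 4.69 and 3.89 in the same order of groups).

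**Figure D3:**
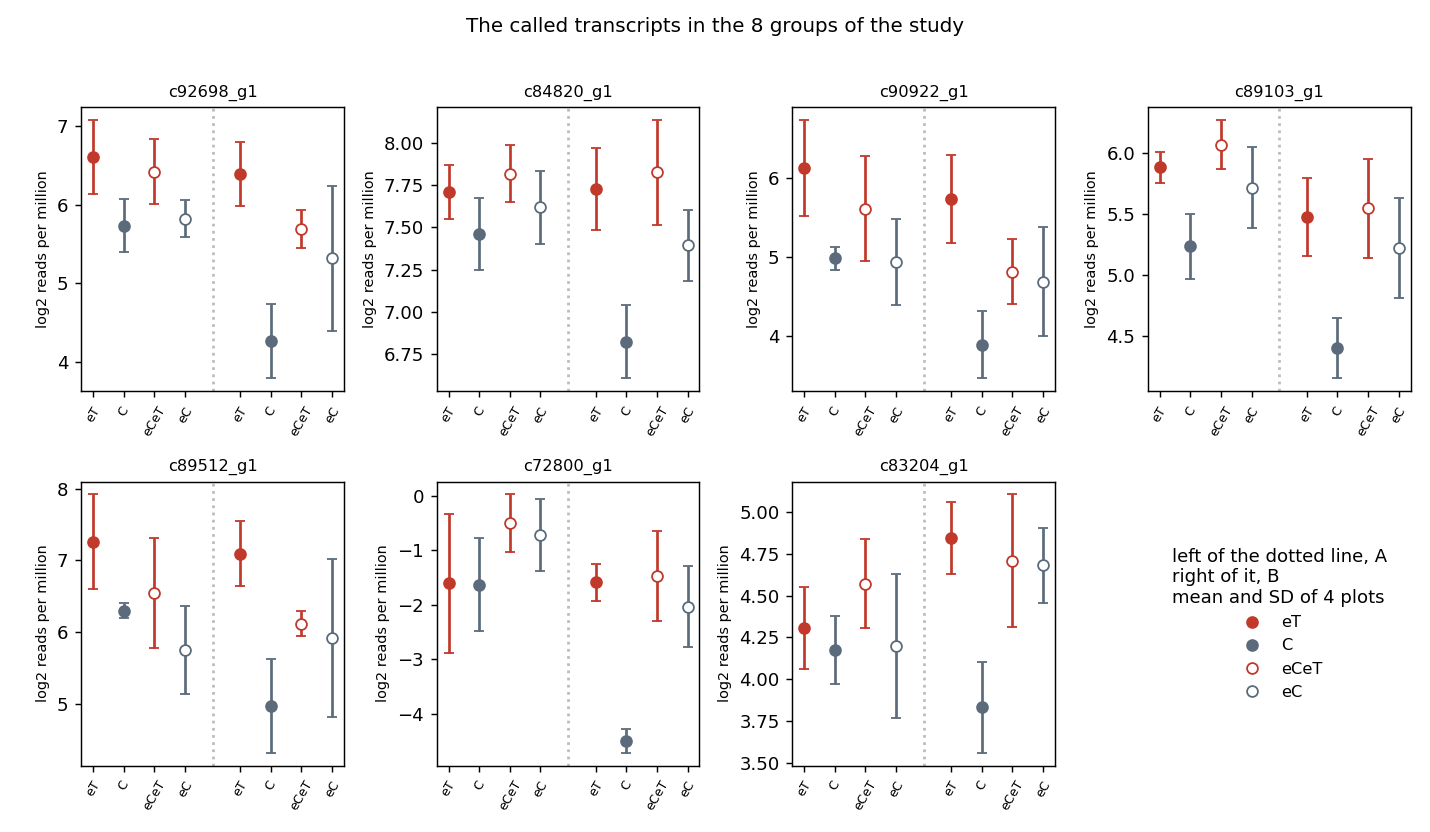
Mean log2 normalized values (y axis) of the 7 called transcripts in the 8 groups (x axis), time point A left and time point B right of the dotted line, with the SD of 4 plots as bars. At time point B the mean of C is the lowest of the 4 treatments in each of the 7, and at time point A the gap between eT and C is smaller. The 7 were picked for their gap at time point B, and the difference between the time points passed for none.

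Earlier in the season, at time point A, all 7 transcripts were also higher in eT than in C, by 0.02 to 1.14 on the log2 scale. These are other libraries of the same plots. The largest of these earlier differences were those of c90922_g1 (1.14), c89512_g1 (0.96) and c92698_g1 (0.87), while c72800_g1 had 0.02 and c83204_g1 0.14. Across all transcripts 19 passed in the earlier samples, of which 2 had the higher level in eT and 17 the lower, and 10.3% had an unadjusted p under 0.05. The difference between the effects at B and at A passed for no transcript (0 called, 1803 or 4.6% at an unadjusted p under 0.05, smallest adjusted p = 0.997, and 0 called with voom). The difference between the effect of warming at elevated [CO2] and at ambient [CO2] also passed for none (0 called, 2079 or 5.3% at an unadjusted p under 0.05, smallest adjusted p = 0.930, and 0 called with voom). An effect particular to 50 days or to ambient [CO2] was therefore not detectable for any single transcript.

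Next in order of p after the called transcripts was c64038_g2, which matched FT. The reads of c64038_g2 numbered 121, 224, 188 and 368 in the eT plots against 3, 27, 40 and 45 in the C plots, or log2 values of 3.36, 4.13, 4.17 and 4.47 in eT against -1.95, 1.27, 2.12 and 1.98 in C. All eT plots lay above all C plots, and C replicate 1 stood far below the other controls. The difference of 3.18 ± 0.65 SE on the log2 scale did not pass (adjusted p = 0.136), though it did in 5 of 24 alternatives, among them the fit with the replicate number as a block (adjusted p = 0.0318). A second transcript with a match to FT, c77009_g3, differed in the same direction. It had log2 values of 3.37, 4.31, 4.41 and 4.30 in eT against -0.67, 2.80, 2.08 and 2.51 in C (difference 2.41 ± 0.54 SE, adjusted p = 0.196), and again C replicate 1 was the lowest plot. Without C replicate 1 the differences were 2.24 (adjusted p = 0.248) and 1.63 (adjusted p = 0.343), and without C replicate 2 that of c77009_g3 was 2.79 and passed (adjusted p = 0.0723). Both had been picked by the study with these C plots.

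In other libraries the FT matches had positive differences too, although those of eCeT had taken part in their choice. With warming at elevated [CO2], eCeT minus eC came to 1.38 for c64038_g2 and 1.17 for c77009_g3, and at time point A eT minus C came to 1.72 and 1.41 for the same 2 transcripts, each with an unadjusted p under 0.05. The third member of the flowering list, c83306_g1, matched CONSTANS-LIKE 2, a relative of the regulator of FT. Its log2 values were 1.27, 0.53, 1.72 and 1.10 in eT against 2.19, 2.06, 1.89 and 2.42 in C, with every eT plot under every C plot (difference -0.98 ± 0.46 SE, adjusted p = 0.658). The difference of c83306_g1 at time point A was -0.94, and that of eCeT minus eC was 0.02. In the flowering list 0 of 3 members were called, 2 were higher and 1 lower at an unadjusted p under 0.05 (0.0179%, 4.02% and 3.23% of all transcripts).

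Chaperone transcripts were higher in eT on average, but not evenly over the plots. Of the 9, 0 were called, against 0.0179% of all transcripts. All 9 of the heat shock and chaperone list had a positive difference, with a median of 0.79 on the log2 scale against -0.0077 over all transcripts, and 4 had an unadjusted p under 0.05 (4.02% of all transcripts were higher at that level). The plots were apart in 1 of the 9, against 2.2% of all transcripts that were higher and apart. It was c88026_g1, a protein with a DnaJ domain, the part that binds HSP70. Its log2 values were 4.91, 5.43, 5.15 and 5.50 in eT against 4.88, 4.70, 4.04 and 4.21 in C (difference 0.79 ± 0.18 SE, adjusted p = 0.200). Without C replicate 1 it was 0.93 and passed (adjusted p = 0.0956). Of the 9, 8 were named from eCeT against C at time point A, and c88026_g1 from time point B.

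C replicate 1 was the highest of the control plots for 8 of the 9 chaperone transcripts. Summed over the list, the chaperone level came to 54.0, 81.8, 96.0 and 112 CPM (reads per 1e+06 of the scaled library) in the eT plots against 102, 57.1, 38.1 and 35.2 CPM in the C plots. C replicate 1 thus lay between the 2 highest warmed plots, and eT replicate 1 lay below C replicate 2. Without C replicate 1 the median difference of the list was 1.19, and without C replicate 4 it was 0.40. In the FPKM table, where C replicates 1 and 2 were the only controls used, the median was -0.16 and 6 of 9 members were lower in eT. Why C replicate 1 was high was not tested.

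Among the small heat shock proteins, the plastid member HSP21 (c78721_g1) had log2 values of 0.19, 0.08, 2.41 and 2.56 in eT against 0.92, -1.34, -0.52 and -1.06 in C (difference 1.81, adjusted p = 0.59). Its warmed plots fell into a low and a high pair, and C replicate 1 lay above the low pair. The cytosolic class II member c85117_g1 had 2.89, 3.22, 4.35 and 3.97 in eT against 5.18, 3.54, 2.85 and 2.22 in C (difference 0.16), with the highest value of all in C replicate 1. The 2 transcripts that matched HSP18.2, c76756_g2 and c84367_g1, had differences of 0.78 and 0.96 with overlapping plots. The disaggregase HSP101 (c88586_g2) and HSP90.1 (c69462_g3) had differences of 0.19 and 0.41. Neither was larger than its standard error.

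The list also held a regulator and a co-chaperone. MBF1C (c75211_g1), a transcriptional co-activator of the heat response in Arabidopsis, had log2 values of -0.66, -0.03, 0.97 and 0.88 in eT against 1.69, -1.05, -4.22 and -1.06 in C (difference 1.45, adjusted p = 0.645), and all its eT plots lay within the range of its C plots. The -4.22 of C replicate 3 is the value of a transcript with no reads in that plot. Without C replicate 3 the difference of MBF1C was 0.43, and without C replicate 1 it was 2.40. BAG6 (c95990_g1), a co-chaperone that binds calmodulin in Arabidopsis, had 2.23, 3.22, 3.47 and 3.73 in eT against 2.21, 1.72, 2.62 and 2.32 in C (difference 0.94, adjusted p = 0.675). In both the groups overlapped. Where CO2 was also elevated, the chaperone list had a median of 1.5 in eCeT minus eC, with 7 of 9 higher at an unadjusted p under 0.05 (3.37% of all transcripts). At time point A the median for eT minus C was 1.73, also with 7 of 9 (4.84% of all transcripts), though the list was chosen at that time point on the same C libraries.

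**Figure D4:**
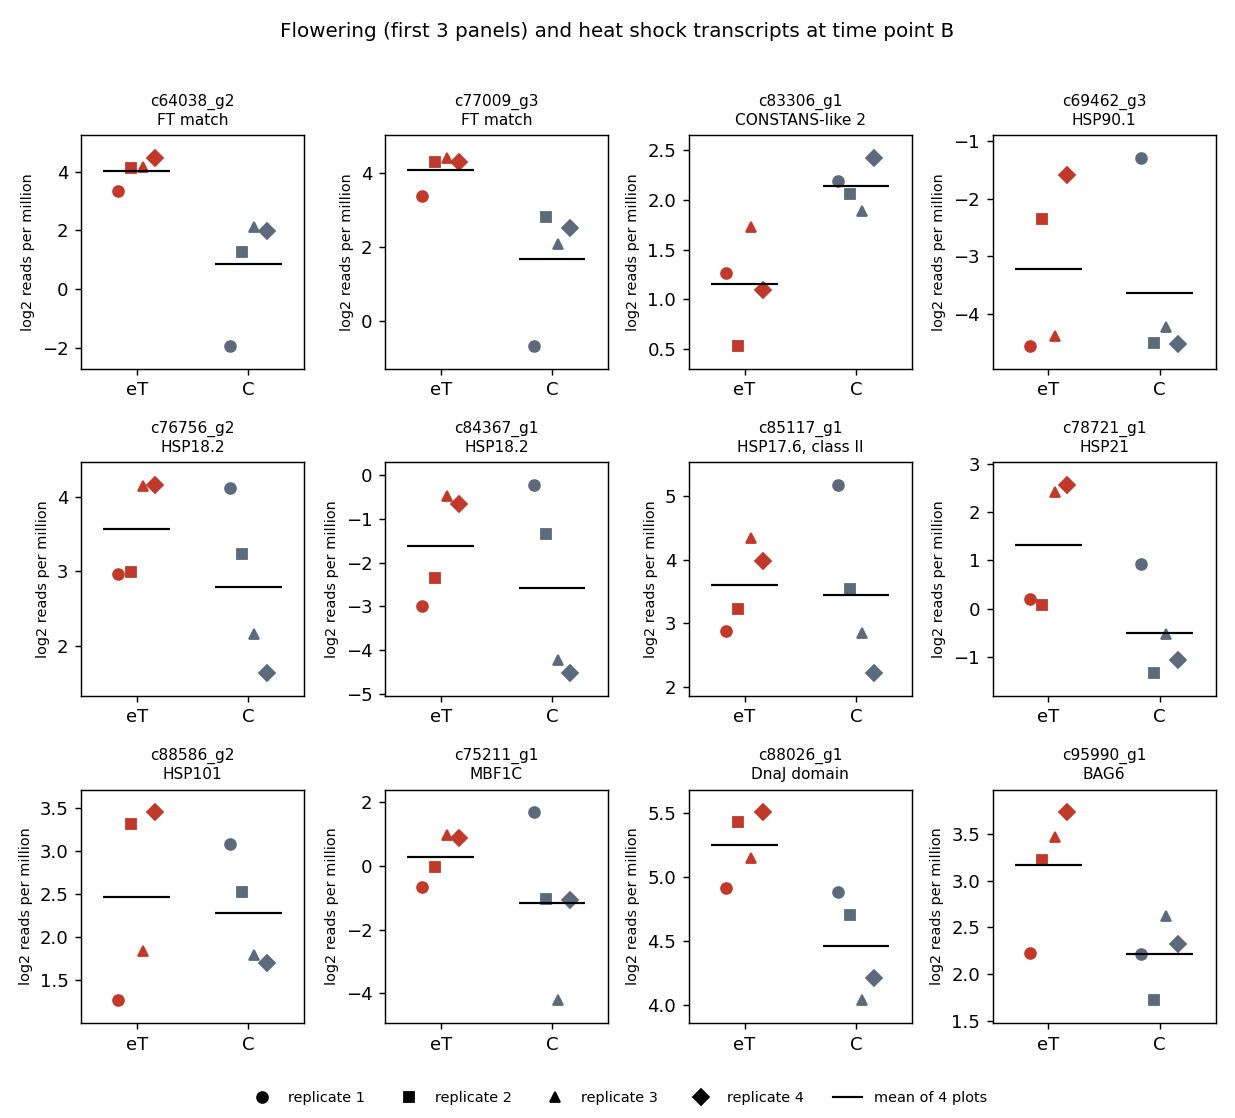
Log2 normalized values (y axis) of flowering and heat shock transcripts in the plots of eT (left) and C (right) at time point B, each replicate with its own symbol and the mean of 4 plots as a line. C replicate 1 is the lowest point for both FT matches and the highest of the C plots for most of the chaperones.

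In the photosynthesis and plastid list, members differed in both directions. Of its 11 transcripts 7 were higher and 4 lower, with a median difference of 0.39. Of the 11, 1 was called (c84820_g1, described above), against 0.0179% of all transcripts. At an unadjusted p under 0.05, 6 were higher and 3 lower, against 4.02% and 3.23% of all transcripts. In each of those 9 the plots were apart (4.42% of all transcripts were apart in either direction). The 6 higher ones, all picked by the study with these C plots, included ribulose-5-phosphate 3-epimerase of the Calvin cycle (c81866_g1), with log2 values of 8.74, 8.87, 8.81 and 8.91 in eT against 8.22, 8.53, 8.16 and 8.64 in C (difference 0.44, adjusted p = 0.529). A pair of transcripts that matched the same plastid-lipid associated protein of the fibrillin family, which coats lipid droplets of the plastid, had differences of 0.62 (c76202_g1, adjusted p = 0.351) and 0.53 (c76264_g1, adjusted p = 0.467). They shared 1 alignment, so the name of each is uncertain. The plastid list summed to 1059 to 1204 CPM in eT and 768 to 948 CPM in C, without overlap. The sum includes the 6 members picked with these C plots, among them the abundant c81866_g1. Its separation is therefore not independent evidence.

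The 3 lower ones belong to the light reactions and had been named from time point A. NDF1 (c84013_g1), which is needed for the NDH complex of cyclic electron flow around photosystem I, had log2 values of 4.79, 4.70, 3.79 and 3.67 in eT against 5.39, 5.83, 5.66 and 5.37 in C (difference -1.32 ± 0.38 SE, adjusted p = 0.394). LHCA6 (c82081_g1), an antenna protein that joins the NDH complex to photosystem I in Arabidopsis, had 4.77, 4.76, 4.30 and 4.52 in eT against 5.01, 5.79, 5.37 and 5.39 in C (difference -0.81 ± 0.33 SE, adjusted p = 0.59). CRR3 (c87432_g1), also required for the NDH complex, had a difference of -1.69 (adjusted p = 0.614). None of the 3 passed the test, and in each of them every eT plot had a lower value than every C plot. At time point A, where the C libraries had taken part in their choice, their differences were -1.43, -1.42 and -2.0, and in eCeT minus eC at time point B they were -0.79, -0.55 and -0.66. Plastocyanin (c66714_g1), which carries electrons to photosystem I, had a difference of 0.36 with overlapping plots (adjusted p = 0.944).

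Of the 5 transcripts for phenylpropanoid enzymes, which make precursors of lignin and of sinapic acid, 4 were higher, with a median difference of 0.10. Among the 5, 0 were called, against 0.0179% of all transcripts. The median was -0.21 without C replicate 3 and 0.66 without C replicate 1. The plots were apart in 1 (2.2% of all transcripts were higher and apart), c72426_g1, a match to an NAD(P)-binding protein that the study treats as a cinnamoyl-CoA reductase, an enzyme of the monolignol branch, and that it had picked with these C plots. Its log2 values were 0.99, 1.55, 1.77 and 1.32 in eT against -0.23, 0.54, 0.17 and 0.97 in C (difference 1.05 ± 0.29 SE, adjusted p = 0.372). The gap between the nearest plots of the 2 groups was small. The difference of c72426_g1 in eCeT minus eC was 0.91, where the eCeT libraries had taken part in its choice. The one lower member, c79367_g1, matched aldehyde dehydrogenase 2C4, which oxidises sinapaldehyde and coniferaldehyde, and had a difference of -1.22 with overlapping plots (adjusted p = 0.739). The beta-glucosidase c73133_g3 had a difference of 0.81 (adjusted p = 0.819).

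Acetyl-CoA carboxylase 1 (c92877_g1), which makes the malonyl-CoA used to build and lengthen fatty acids, was the only member of the fatty acid list and had been picked with these C plots. It had log2 values of 8.91, 8.27, 8.19 and 8.18 in eT against 9.39, 8.88, 9.28 and 9.30 in C (difference -0.82 ± 0.23 SE, adjusted p = 0.391). The groups overlapped through 1 warmed plot, eT replicate 1, which lay just above C replicate 2. The difference of c92877_g1 in eCeT minus eC was -0.60, where the eCeT libraries had taken part in its choice. At time point A its eT minus C was 0.02.

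Defence transcripts were lower in eT in most cases, though 0 of the 38 in 3 lists were called, against 0.0179% of all transcripts. Of 14 pathogenesis-related and cell wall transcripts 13 were lower, with a median of -0.55, and 2 had an unadjusted p under 0.05 (3.23% of all transcripts were lower at that level). With a plot left out the median was between -0.70 (without C replicate 3) and -0.28 (without eT replicate 3). The 2 with an unadjusted p under 0.05 were c93254_g1 and c70175_g1. The first, of the barwin-related endoglucanases, had a difference of -1.35 (adjusted p = 0.687). The second, a polygalacturonase-inhibiting protein that blocks fungal wall-degrading enzymes, had -1.47 (adjusted p = 0.626). Both overlapped between the groups. The osmotin c79024_g1, an antifungal protein of the thaumatin family, had 4.75, 4.89, 5.03 and 5.01 in eT against 6.2, 5.91, 4.99 and 6.2 in C (difference -0.90, adjusted p = 0.736), and C replicate 3 lay among the warmed plots. The exception was a second polygalacturonase-inhibiting protein, c86748_g3, at 0.99 (adjusted p = 0.846). Summed over the list, the level was 77.5 to 114 CPM in the eT plots and 82.4 to 171 CPM in the C plots.

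Of the 15 receptors and resistance proteins 13 were lower, with a median of -0.72. Among these 13, 3 had an unadjusted p under 0.05 (3.23% of all transcripts were lower at that level). A leucine-rich repeat kinase, c80773_g2, had log2 values of 1.62, 1.55, 1.23 and 1.82 in eT against 2.95, 2.36, 2.15 and 3.24 in C (difference -1.12 ± 0.43 SE, adjusted p = 0.552), with the plots apart. So were those of CRK8 (c86560_g1), a cysteine-rich receptor kinase, with a difference of -1.13 (adjusted p = 0.673). The kinase c93525_g3 had a difference of -1.11 (adjusted p = 0.598). EFR (c79995_g4), the Arabidopsis receptor of the bacterial elongation factor EF-Tu, had a difference of -0.97 with the plots apart (adjusted p = 0.819), and the wall-associated kinase c89574_g8 had -1.17 (adjusted p = 0.703). The 2 higher members were c70514_g1, a match to ADR1-LIKE 3, at 0.48, and the leucine-rich repeat protein c61685_g1 at 0.36 with the plots apart. In all, the plots were apart in 1 higher and 3 lower members, against 2.2% and 2.22% of all transcripts. Summed over the list, the level was 12.8 to 21.6 CPM in the eT plots and 21.3 to 36.3 CPM in the C plots, an overlap of 1 plot on each side.

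Of the 9 cytochrome P450 and terpenoid enzymes 8 were lower, with a median of -0.37. At an unadjusted p under 0.05, 0 were higher and 0 lower, against 4.02% and 3.23% of all transcripts. The median was -0.60 without eT replicate 2 and -0.23 without C replicate 1. The higher one, c78858_g1 of family CYP76, had a difference of 0.26. At time point A the same 3 defence lists had medians of -1.36 (pathogenesis-related), -1.55 (receptors) and -1.62 (P450), and at time point B in eCeT minus eC of -0.32, -0.13 and -0.12 in the same order. The lists were chosen at time point A from eCeT against C. Members of 2 co-expression modules of the study, defined at time point A, were also examined. They were only those that it had picked in eCeT against C at that time point. The study linked module 3 as a whole to defence. Of its 84 picked members, 64 were lower and 20 higher at time point B, with a median of -0.48. At an unadjusted p under 0.05, 9 were lower and 3 higher, against 3.23% and 4.02% of all transcripts. Of the 35 picked members of module 5, 18 were higher and 17 lower, with a median of 0.02. That median was -0.21 without C replicate 3 and 0.24 without C replicate 1.

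**Figure D5:**
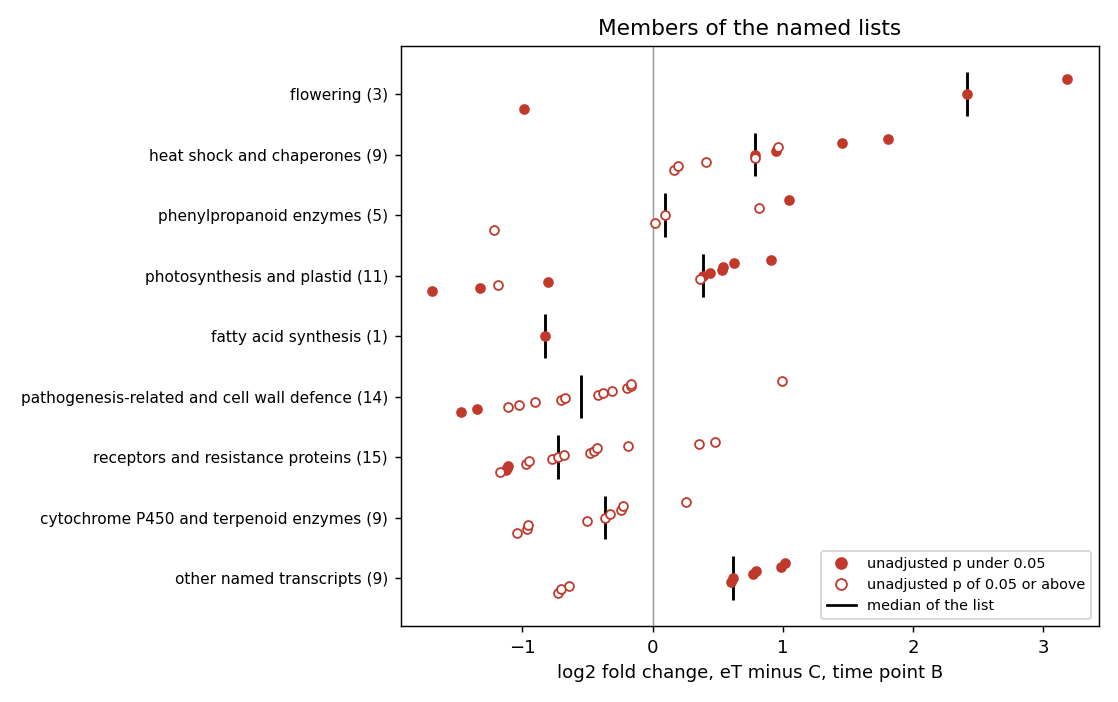
Log2 differences of eT minus C at time point B (x axis) for the members of each named list (y axis), 1 point a transcript, filled where the unadjusted p was under 0.05, with the median of the list as a bar. The receptor and pathogenesis-related lists lie mostly below 0, and the 9 heat shock transcripts lie above it.

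Among the other named transcripts, 6 of 9 were higher at an unadjusted p under 0.05 and 1 of these, c83204_g1, was called, against 4.02% and 0.0179% of all transcripts. All 6 had been picked by the study with these C plots. The aspartyl protease c87028_g2 had log2 values of 8.71, 8.53, 9.06 and 8.53 in eT against 7.94, 8.08, 8.13 and 7.60 in C (difference 0.77, adjusted p = 0.467), with the plots apart. The F-box protein c80536_g3, of a class that picks targets for ubiquitination, had a difference of 0.99 (adjusted p = 0.394). The h-type thioredoxin c85858_g1, a reductant of protein disulphides, had 0.79 (adjusted p = 0.389), and the ribosomal L18ae family protein c79723_g2 had 0.60 (adjusted p = 0.273). Without C replicate 2 that of c79723_g2 was 0.72 and passed (adjusted p = 0.084). The cupin c80455_g1 had a difference of 0.62 (adjusted p = 0.496). In eCeT minus eC, where the eCeT libraries had taken part in the choice, the F-box protein, the thioredoxin, the aspartyl protease and the cupin had differences of 0.70, 0.74, 0.81 and 0.75, c79723_g2 had 0.17 and c83204_g1 had 0.03. The median of the 9 there was 0.17, with 4 higher and 1 lower at an unadjusted p under 0.05. Over all 39208 transcripts 1322 were higher and 879 lower at that level. A second aspartyl protease, c80798_g1, named from time point A, was at -0.70 in eT minus C.

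Outside the named lists, the transcripts nearest to the threshold had no name. The higher ones were c79422_g1 (difference 1.91, adjusted p = 0.139), c94111_g1 (0.78, adjusted p = 0.152), c83530_g2 (2.56, adjusted p = 0.171) and c78173_g1 (0.74, adjusted p = 0.181). The smallest p on the lower side was that of c92945_g2, with log2 values of 2.28, 2.40, 1.84 and 1.89 in eT against 3.58, 2.86, 3.46 and 3.39 in C (difference -1.22 ± 0.26 SE, adjusted p = 0.152). The plots of each of these were apart. The other 4 lower ones were c85412_g5 (-2.90, adjusted p = 0.181), read 1, 1, 0 and 1 times in eT against 10, 1, 15 and 13 times in C, c78007_g2 (-0.54, adjusted p = 0.208), c90656_g2 (-0.64, adjusted p = 0.216) and c77189_g1 (-2.79, adjusted p = 0.27). Without C replicate 2 several passed, namely c79422_g1 (2.12, adjusted p = 0.0672), c78173_g1 (0.90, adjusted p = 0.0304), c92945_g2 (-1.37, adjusted p = 0.0672), c85412_g5 (-3.68, adjusted p = 0.012) and c90656_g2 (-0.74, adjusted p = 0.0933), and c79422_g1 also passed without eT replicate 1 (2.25, adjusted p = 0.062).

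Among transcripts with at least 100 reads over the 8 plots, of which there were 23742, the widest differences with the plots apart included those of the FT matches. Beside c64038_g2, c77009_g3 and c83530_g2, the higher side held c70785_g1 (2.79, adjusted p = 0.441) and c79052_g1 (2.59, adjusted p = 0.467). The lower side held c64633_g1 (-2.30, adjusted p = 0.464), c79382_g2 (-2.13), c77176_g1 (-2.03), c84757_g4 (-2.0) and c92555_g1 (-1.96). Single plots set some of these. The reads of c79382_g2 numbered 20, 23, 17 and 14 in eT against 751, 23, 57 and 27 in C, where C replicate 1 held most of them, and those of c84757_g4 numbered 62, 15, 55 and 74 in eT against 74, 85, 838 and 120 in C, where C replicate 3 did. At time point A, in other libraries of the same plots, the differences of eT minus C were in the other direction for c70785_g1 (-1.07), c79052_g1 (-1.45), c79382_g2 (0.96) and c84757_g4 (0.23). They were in the same direction for c64633_g1 (-2.53), c77176_g1 (-1.28) and c92555_g1 (-1.69).

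Presence in all plots of 1 group and absence from the other was rare. Reads in all 4 eT plots and 0 in all C plots were found for 4 transcripts, the called c72800_g1 among them, with at most 17 reads over the group. That sum belonged to c83727_g1, read 1, 4, 4 and 8 times in eT and at least 5.02-fold higher there. The reverse was found for 3, with at most 19 reads, in c64949_g1, read 2, 4, 1 and 12 times in C and at least 7.15-fold lower in eT. No abundant transcript was switched on or off between the groups. Among the 500 most abundant transcripts the smallest p belonged on the higher side to c74791_g2 (difference 0.86, adjusted p = 0.37), c90246_g1 (0.68, adjusted p = 0.417) and c84571_g1 (0.50, adjusted p = 0.464). On the lower side they belonged to c92877_g1, described above, c83566_g3 (-0.90, adjusted p = 0.394) and c87860_g1 (-0.41, adjusted p = 0.482).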

How the data were processed

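Total RNA of 6 pooled leaves per plot was sequenced as paired reads (TruSeq Standard RNA kit, strand use not stated) and assembled de novo with Trinity by the authors, who kept transcripts with at least 10 reads over the 4 replicates of a treatment. The aligner and counter are not given in the sources used here. The authors deposited log2 values of reads plus 0.5 per 1e+06 of a TMM-scaled library size (voom form), after removal of outliers, and FPKM for 45073 transcripts, of which 39117 are in both tables. Of the FPKM columns, 3 of the control were not used because their header lines contradict each other. Reads were recovered from the deposited log2 values as whole numbers (100% of the values up to 1000 reads within 0.02 of a whole number). Limits from a floor of 3 reads cover counting error only.

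limma 3.58.1 in R 4.3.3 was fitted to the deposited log2 values in 1 linear model of the 8 groups over 32 libraries, with empirical Bayes moderation and a trend. Adjusted p-values are Benjamini-Hochberg over all 39208 transcripts, called under 0.1, the threshold of the authors. The authors used limma after voom, while the main fit here took the log2 values without voom weights. The spread is shared with groups not compared. Two-sided exact permutation tests served single values. The scripts were tested on simulated data first. Figures and summaries used Python 3.11.15, numpy 2.4.6, pandas 2.3.3 and matplotlib 3.10.9.

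Transcripts named are those called, the 5 next in p and the 5 widest apart in each direction with at least 100 reads, those on or off, the 3 leading ones per direction among the 500 most abundant, c78052_g1, and members of 9 lists with 76 names (matches to Arabidopsis, E value at most 1e-04), of which some are given only within ranges. Of these, 4 share an alignment with another. The members and lists were chosen with earlier results of these data known. Alternatives were other moderation, scaling, filters, read offsets, voom, the FPKM table, fewer libraries, a replicate block, plot as a random effect, and each plot left out.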

Additional observations from a re-analysis of the deposited data

Results flagged for a closer look

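Of 164 groups of 4 plots examined, 14 held a plot whose gap to its nearest neighbour passed Dixon's critical value, as a share of the range of the group, which chance gives in about 1 in 20 groups. In eT, replicate 1 was low for c77009_g3, a match to FT, at 3.37 on the log2 scale against 4.30 to 4.41 in the other eT plots, for c79422_g1 at -1.39 against -0.14 to -0.01, and for the receptor EFR (c79995_g4) at -1.39 against -0.68 to -0.59. It was high for acetyl-CoA carboxylase 1 (c92877_g1) at 8.91 against 8.18 to 8.27. Replicate 4 of eT was low for c90656_g2 at 6.43 against 6.72 to 6.77, for c79382_g2 at -0.19 against 0.75 to 0.88, and for c92555_g1 at -1.35 against -0.32 to -0.29, and high for c77189_g1 at -2.73 against -4.68 to -4.38. Replicate 2 of eT was low for c84757_g4 at 0.28 against 2.17 to 2.41. The median log2 value of a library was 0.75 in eT replicate 3 against 0.86 to 0.88 in the other eT plots.

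In C, replicate 1 was high for HSP90.1 (c69462_g3) at -1.29 on the log2 scale against -4.52 to -4.22, where the other control plots had 0 reads. Replicate 2 of C was high for c74791_g2 at 7.57 against 6.95 to 7.05 and for the thioredoxin c85858_g1 at 3.05 against 2.62 to 2.67. Replicate 3 of C was high for c83566_g3 at 9.13 against 8.58 to 8.67.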

How the results depend on the processing

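Against the 7 transcripts called in eT against C, the count was 0 with only the 16 libraries of time point B, 1 without the variance trend, 3 with robust moderation, 24 with array weights (20 higher and 4 lower), 18 after quantile normalization (16 higher and 2 lower, 6 of them among the 7), 12 with medians centred, 2 with voom, 1 (lower) and 0 with FPKM and pseudocounts of 1 and 0.1, 1 at an adjusted p under 0.05, and 1 to 17 with a plot left out. The cause was not tested. With only the 8 libraries compared it was 10 (5 higher and 5 lower, 3 among the 7). With the replicate number as a block it was 7, of which 6 were the same: c83204_g1 was lost (adjusted p = 0.103) and c64038_g2, a match to FT, passed (adjusted p = 0.0318). Plots with the same number had correlations of their deviations of 0.016, 0.15, -0.070 and 0.114 between eT and C, and not every plot correlated best with its own number. With the block the treatment held 28.8% of squared distances, beside a median of 25.3% over the arrangements (exact permutation p = 0.25). For eCeT against eC, against 0, the count was 1 with the block, 1 with medians centred, 1 with 5 reads added, and 0 to 3 with a plot left out. Medians of lists moved as follows: phenylpropanoid 0.57 with a minimum of 1 CPM, 0.46 with a minimum of 10 reads and -0.66 with FPKM and pseudocount 0.1 (-0.21 to 0.66 with a plot left out); heat shock -0.16 and -0.18 with FPKM (0.40 to 1.19); photosynthesis 0.25 and 0.25 with FPKM; other named transcripts 0.30 and 0.31 with FPKM; module 5 -0.57 with FPKM and pseudocount 0.1; and flowering 1.63 to 2.79 with a plot left out. Directions turned for c69462_g3 with 5 reads added (-0.045) and, with FPKM and pseudocounts of 1 and 0.1, for c78052_g1 (0.29 and 0.29), c69462_g3 (-0.095 and -0.27), c76756_g2 (-0.17 and -0.18), c84367_g1 (-0.27 and -0.82), c85117_g1 (-0.58 and -0.59), c88586_g2 (-0.29 and -0.41), c75211_g1 (-0.16 and -0.098) and c66714_g1 (-0.43 and -0.45), with C replicates 1 and 2 as the only controls there. With a plot left out the ranges that crossed 0 were -0.40 to 0.29 for c78052_g1, -0.14 to 0.59 for c88586_g2, -0.25 to 0.74 for c85117_g1, -0.13 to 1.19 for c69462_g3 and -0.12 to 0.67 for c66714_g1. Over the transcripts named with a value, 1682 values kept their direction and side of the threshold, 82 lost a call, 34 gained one and 26 turned. Only the 7 called transcripts could lose a call, so all 82 losses are theirs. They ranged from 3 of 24 alternatives for c92698_g1 to 18 of 23 for c72800_g1. Most of the 1682 values belong to transcripts not called in the main fit.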
